A study of Arabidopsis thaliana with 45 samples.

Results

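The 10 core circadian clock genes of Arabidopsis thaliana were followed in RNA and in histone H3 lysine 27 trimethylation (H3K27me3) across plants in which the Polycomb subunit FIE or the TOR kinase had been disturbed. They are CCA1 (AT2G46830), LHY (AT1G01060), PRR9 (AT2G46790), PRR7 (AT5G02810), PRR5 (AT5G24470), PRR3 (AT5G60100), TOC1 (AT5G61380), GI (AT1G22770), ELF3 (AT2G25930) and ELF4 (AT2G40080). They were listed by locus identifier, not by a cut on measured values, though earlier results of these data were known. They are 10 of the 32678 genes of the count table. All 10 were found there, and all 10 could be placed against the ChIP peaks, as could 26712 nuclear protein-coding genes in all.

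The clock of this plant is a loop of transcriptional repressors that act one after another through the day and night. CCA1 and LHY, related MYB factors, peak around dawn and repress genes of the evening. The pseudo-response regulators PRR9, PRR7, PRR5, PRR3 and TOC1 follow in that order, and PRR9, PRR7 and PRR5 in turn repress CCA1 and LHY. ELF3 and ELF4 form the evening complex with LUX, which represses genes such as PRR9 at night, while GI stabilises the F-box protein ZTL and promotes flowering under long days. H3K27me3 is laid down by Polycomb repressive complex 2 (PRC2), of which FIE is a core subunit, and marks silenced genes.

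The series holds 45 libraries in groups of 3. RNA was sequenced from the aerial parts of 2-week-old plants on solid medium in 4 genotypes: Col-0 wild type (called Ctrl), amiR-fie-es (an artificial microRNA against FIE, given oestradiol from the beginning, 10 mM as the labels write it), GFP-FIE (the fie mutant carrying wild-type GFP-tagged FIE, genotype GFP-FIE/fie), and SSTS/AAAA (the fie mutant carrying the GFP-tagged FIE with altered phosphorylation sites, genotype SSTS/AAAA/fie). H3K27me3 was profiled in the same 4 genotypes and, in 7-day-old seedlings from liquid medium, in Col-0, in tor-es (TOR depleted with oestradiol from day 3), and in Col-0 given DMSO or 10 µM of the TOR inhibitors AZD8055 or Torin2 from day 4 for 3 days. H3K9me2, another repressive mark, was profiled in the 7-day-old Col-0 and tor-es. Whether wild-type plants were given oestradiol, which promoter drives the FIE transgenes and whether a genotype is 1 transgenic line is not stated in the labels. They also do not give the time of day at harvest, or whether it was the same for all genotypes. A changed level of a clock gene, a shifted daily rhythm and a different harvest time thus cannot be told apart in these data. In whole shoots, fewer cells of a type and less RNA per cell cannot be told apart either.

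RNA totals ran from 28866845 to 34543091 counts per library. FIE itself was at 15.7, 18.3 and 18.6 normalised counts (CPM, scaled by TMM, the trimmed mean of M values) in Ctrl and at 9.10, 8.79 and 8.81 in amiR-fie-es, a log2 change of −0.98 ± 0.07 (SE, n = 3, edgeR adjusted p = 4.06e-16). It was at 25.2, 27.6 and 23.8 CPM in GFP-FIE and at 12.2, 11.7 and 11.4 in SSTS/AAAA, −1.11 ± 0.06 on the log2 scale (adjusted p = 8.28e-20), so the SSTS/AAAA plants differed from GFP-FIE in the level of FIE RNA as well as in its sites. The library of SSTS/AAAA replicate 1 stood apart from the other replicates of that genotype, with a chi-square per gene of 3.29 and 3.43 against 1.46 to 1.87 in the other pairs of all 4 genotypes. The shoot markers (6 genes, RBCS1A and LHCB1.1 among them) summed to 43737 to 44471 CPM in Ctrl, 30953 to 31267 in amiR-fie-es, 46221 to 46770 in GFP-FIE and 31189 to 32082 in SSTS/AAAA. The 6 flower markers summed to 4.58 to 6.08 CPM in Ctrl, 168 to 173 in amiR-fie-es, 4.86 to 7.60 in GFP-FIE and 282 to 289 in SSTS/AAAA. The 6 shoot meristem markers summed to 14.8 to 15.6, 15.2 to 17.6, 12.4 to 14.1 and 41.9 to 44.9 CPM in the same order, the 6 vascular markers to 329 to 339, 247 to 250, 339 to 350 and 257 to 259, and the 6 root markers to at most 0.753 CPM in any library. KNAT1 and STM, with means of 23.2 and 16.5 CPM in SSTS/AAAA, made up most of the meristem sum. CLV3 and WUS of that list were too low to test. No list had a gene at 0 in all libraries of a genotype. These tissue markers moved with the genotypes compared here, and their part in the clock gene changes was not tested.

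At the unstated time or times of harvest, the dawn genes dominated in every genotype. On the length-corrected scale of the authors' FPKM (fragments per kilobase of gene, scaled to the library total), CCA1 averaged 157 ± 2.78 (SD, n = 3) in Ctrl and LHY 91.5 ± 0.578, ahead of PRR7 at 30.9 ± 0.555 and PRR9 at 13.2 ± 1.31. TOC1 was at 4.74 FPKM, GI at 3.90 and ELF3 at 3.13, PRR5 and PRR3 were at 0.0760 and 0.0358, and ELF4 was listed at 0. Neighbours in that order had separate ranges in Ctrl except PRR5 and PRR3, whose values overlapped. CCA1, LHY and PRR7 kept the first 3 places in all 4 genotypes. In amiR-fie-es, TOC1 (6.48 to 7.44 FPKM) and PRR9 (6.46 to 6.80 FPKM) overlapped, whereas in Ctrl, GFP-FIE and SSTS/AAAA every PRR9 value lay above every TOC1 value. PRR3 and ELF4 had the lowest levels in each genotype; their ranges overlapped in amiR-fie-es and SSTS/AAAA and met at 0 in GFP-FIE.

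**Figure D1:**
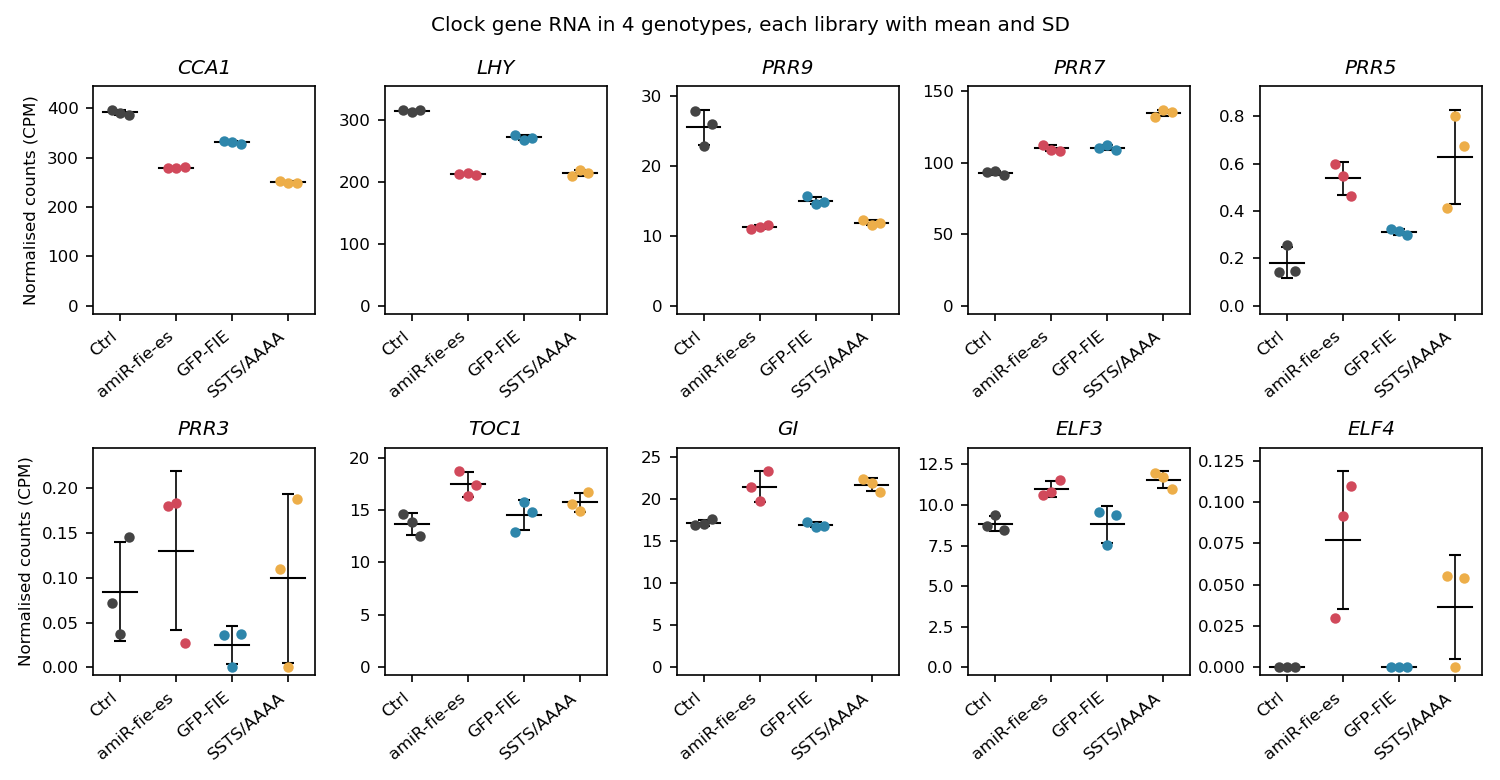
TMM-normalised counts (CPM, linear axes with a separate scale per gene) of the 10 clock genes in 3 libraries of each of 4 genotypes; points are libraries, horizontal bars means and error bars SD. CCA1, LHY and PRR9 are highest in Ctrl, PRR7 is highest in SSTS/AAAA, and PRR3 and ELF4 rest on at most 7 counts per library.

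The first comparison asked how clock genes stood in plants with FIE silenced. CCA1, LHY and PRR9 fell and PRR7, TOC1, GI, ELF3 and PRR5 rose in amiR-fie-es against Ctrl, by edgeR's quasi-likelihood test with Benjamini-Hochberg adjustment over the 20046 genes tested. So 5 of the 8 tested rose and 3 fell, where 29.3% of all genes tested rose and 30% fell. PRR3 and ELF4 were too low to test. One of the rises, PRR5, passed the filter on low counts only through genotypes where it was higher, so it had to differ and is no support; 4 rises remain without it. CCA1 went from 398, 390 and 387 CPM in Ctrl to 279, 280 and 280 CPM in amiR-fie-es, a log2 change of −0.49 ± 0.02 (SE, n = 3, adjusted p = 4.63e-25). All 3 silenced libraries lay below all 3 wild-type ones. LHY went from 315, 312 and 316 CPM to 213, 214 and 211 CPM, −0.56 ± 0.02 (adjusted p = 4.11e-26), again without overlap. PRR9, the first of the day-phase repressors of CCA1 and LHY, went from 27.9, 22.9 and 26.0 CPM to 11.0, 11.3 and 11.6 CPM. That was the largest fall among the 8 tested, −1.18 ± 0.06 (adjusted p = 1.42e-20), and the wild-type libraries spread more widely than the silenced ones.

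PRR7, which acts after PRR9 in the morning, moved the opposite way, from 93.2, 94.0 and 91.4 CPM to 112, 109 and 108 CPM, 0.24 ± 0.03 (adjusted p = 7.97e-11). TOC1, the evening repressor of CCA1 and LHY, went from 14.6, 13.8 and 12.5 CPM to 18.7, 16.3 and 17.3 CPM, 0.36 ± 0.07 (adjusted p = 2.40e-05). In both genes the ranges of the genotypes were separate. GI went from 16.9, 17.0 and 17.6 CPM to 21.4, 19.7 and 23.3 CPM, 0.32 ± 0.06 (adjusted p = 6.48e-06). ELF3, the scaffold of the evening complex, went from 8.73, 9.35 and 8.43 CPM to 10.6, 10.8 and 11.5 CPM, 0.31 ± 0.08 (adjusted p = 0.000704). The silenced libraries were above the wild type for both genes, by less than the fall of CCA1, LHY or PRR9 on the log2 scale. ELF3 shares 24 bp with ALPHA-VPE (AT2G25940), which held 10 to 32 counts per library, and 183 bp with an antisense RNA (AT2G08135); whether reads were assigned by strand is not stated.

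The remaining members were near the limit of detection. PRR5 held 4, 7 and 4 raw counts in Ctrl and 20, 18 and 17 in amiR-fie-es, 1.54 ± 0.42 on the log2 scale (adjusted p = 0.00153). The groups did not overlap. PRR3, which stabilises TOC1 protein, held 2, 1 and 4 counts in Ctrl and 6, 6 and 1 in amiR-fie-es, with overlap. ELF4 held 0, 0 and 0 counts in Ctrl, which allows up to 3 counts, and 1, 3 and 4 in amiR-fie-es. With every gene of at least 1 count in the fit, ELF4 had an adjusted p of 0.0441 and PRR3 one of 0.641.

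The second comparison set the phosphosite mutant against its own complemented control. CCA1, LHY and PRR9 fell and PRR7, GI, ELF3 and PRR5 rose in SSTS/AAAA against GFP-FIE. These are 4 rises and 3 falls among the 8 tested, where 33.3% of all genes tested rose and 32.3% fell. Without PRR5, 3 rises remain. CCA1 went from 333, 331 and 328 CPM to 253, 248 and 249 CPM, −0.41 ± 0.02 (SE, n = 3, edgeR adjusted p = 3.33e-22). LHY went from 276, 268 and 271 CPM to 209, 220 and 215 CPM, −0.34 ± 0.02 (adjusted p = 2.50e-18). Neither gene had overlapping groups. PRR9 went from 15.7, 14.6 and 14.9 CPM to 12.3, 11.5 and 11.9 CPM, −0.34 ± 0.07 (adjusted p = 2.66e-05), all mutant libraries being lower. Scaled to total counts instead of TMM, the PRR9 change was −0.13 and missed the threshold (adjusted p = 0.0911).

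PRR7 went from 110, 112 and 109 CPM in GFP-FIE to 132, 137 and 135 CPM in SSTS/AAAA, 0.29 ± 0.03 (adjusted p = 1.63e-13). GI went from 17.3, 16.7 and 16.8 CPM to 22.3, 21.8 and 20.8 CPM, 0.36 ± 0.06 (adjusted p = 8.96e-07). ELF3 went from 9.54, 7.51 and 9.39 CPM to 11.99, 11.7 and 11.0 CPM, 0.39 ± 0.08 (adjusted p = 2.59e-05). All mutant libraries exceeded all complemented ones for these 3 genes. TOC1, at 12.9, 15.7 and 14.9 CPM against 15.5, 14.9 and 16.7 CPM, overlapped between the groups and did not pass (0.12 ± 0.07, adjusted p = 0.129), though under total-count scaling it was 0.33 and passed (adjusted p = 4.94e-05). PRR5 held 9, 9 and 8 counts in GFP-FIE and 15, 27 and 25 in SSTS/AAAA, 0.99 ± 0.35 (adjusted p = 0.0134). Its call rested on 1 library, since the adjusted p was 0.0833 without SSTS/AAAA replicate 2. PRR3 held 1, 0 and 1 counts in GFP-FIE and 4, 0 and 7 in SSTS/AAAA, and ELF4 held 0, 0 and 0 against 2, 0 and 2, so that both genes overlapped. Without SSTS/AAAA replicate 1, the library that stood apart, the counts were still 4 rises and 3 falls.

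The complemented control was itself not at the wild-type level for the morning genes. In GFP-FIE against Ctrl, the log2 change of CCA1 was −0.24 ± 0.02 (adjusted p = 3.86e-14), that of LHY −0.21 ± 0.02 (adjusted p = 2.50e-11) and that of PRR9 −0.77 ± 0.06 (adjusted p = 6.94e-14), while PRR7 rose by 0.25 ± 0.03 (adjusted p = 2.57e-10). So 1 of the 8 tested rose and 3 fell, beside 14.4% and 15.3% of all genes tested. TOC1 (0.09 ± 0.07, adjusted p = 0.420), GI (−0.02 ± 0.06, 0.855), ELF3 (−0.01 ± 0.09, 0.975) and PRR5 (0.77 ± 0.49, 0.253) did not pass. The 4 that moved are those with the highest length-corrected levels in Ctrl. PRR9 in GFP-FIE, at 14.6 to 15.7 CPM, lay wholly below Ctrl and above both SSTS/AAAA and amiR-fie-es.

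**Figure D2:**
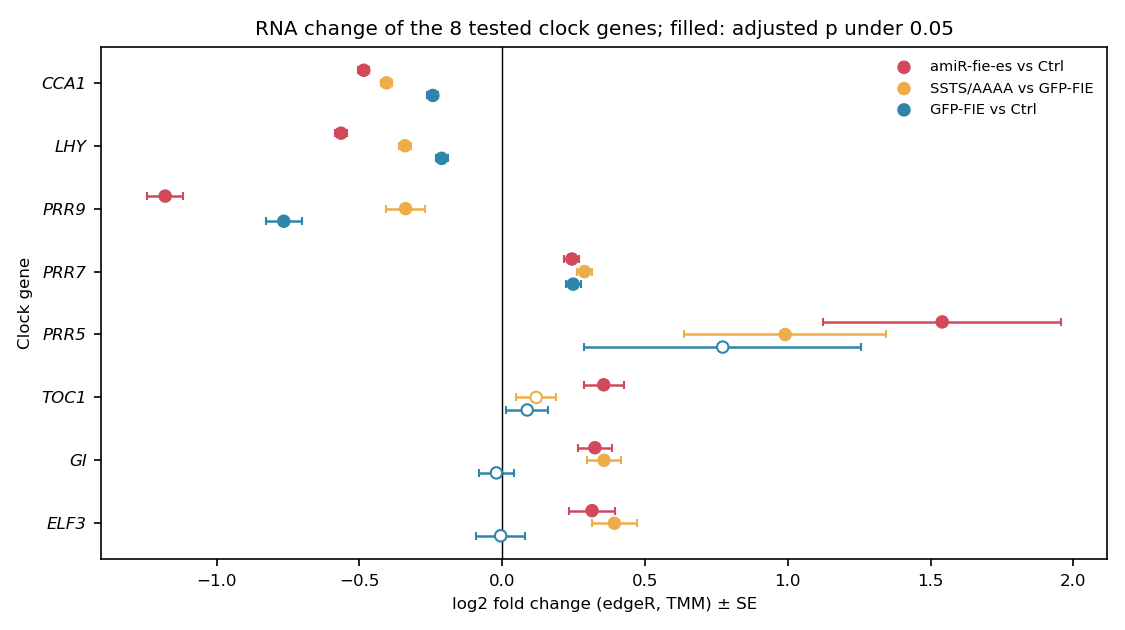
Log2 fold change (x axis, edgeR with TMM scaling, error bars SE) of the 8 clock genes that could be tested (y axis), in amiR-fie-es against Ctrl, SSTS/AAAA against GFP-FIE and GFP-FIE against Ctrl, 3 libraries per group. Filled points passed an adjusted p of 0.05; CCA1, LHY and PRR9 lie left of 0 and PRR7 right of 0 in all 3 comparisons, and PRR9 has the widest gap between them.

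Against the wild type, SSTS/AAAA showed 5 rises and 3 falls among the 8 tested, where 35% of all genes tested rose and 34.1% fell. Without PRR5, 4 rises remain. These share the Ctrl libraries with the other 2 comparisons against Ctrl. CCA1 (−0.65 ± 0.02, adjusted p = 8.13e-30), LHY (−0.55 ± 0.02, 5.56e-26) and PRR9 (−1.10 ± 0.06, 5.85e-20) fell. PRR7 (0.54 ± 0.03, 2.54e-22), GI (0.34 ± 0.06, 2.40e-06), ELF3 (0.39 ± 0.08, 2.98e-05), and TOC1 (0.21 ± 0.07, 0.00881) rose. PRR5, chosen by the filter through its higher groups, was at 1.76 ± 0.40 (0.000167). TOC1 missed the threshold without Ctrl replicate 3 (adjusted p = 0.183) or SSTS/AAAA replicate 3 (0.0696). PRR7 was lowest in Ctrl, with amiR-fie-es and GFP-FIE together in the middle, and SSTS/AAAA highest, without overlap between these steps.

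The direct comparison of SSTS/AAAA with amiR-fie-es gave 1 rise and 2 falls among the 8 tested, where 30.9% of all genes tested rose and 25% fell. PRR7 was higher in SSTS/AAAA by 0.29 ± 0.02 (adjusted p = 1.17e-13) and CCA1 lower, −0.16 ± 0.02 (1.53e-09). TOC1 was lower at −0.15 ± 0.06 (adjusted p = 0.0479), a call lost without amiR-fie-es replicate 1 (0.257) or 3 (0.0777), or SSTS/AAAA replicate 1 (0.0957) or 2 (0.179). Under DESeq2 this comparison gave 1 rise and 1 fall among the clock genes. LHY (0.01 ± 0.02), PRR9 (0.08 ± 0.07), GI (0.01 ± 0.05), ELF3 (0.07 ± 0.07) and PRR5 (0.22 ± 0.30) did not pass. In amiR-fie-es against GFP-FIE, TOC1, GI and ELF3 rose and CCA1, LHY and PRR9 fell, beside 27.9% and 28.6% of all genes. PRR7 was at −0.00 ± 0.03 (adjusted p = 0.891), its values of 108 to 112 CPM in amiR-fie-es overlapping the 109 to 112 CPM of GFP-FIE. Under total counts the CCA1 change was −0.02 and missed the threshold (adjusted p = 0.274), PRR7 was at 0.21 and passed (1.59e-09), and PRR5 passed (0.98, 0.0158). PRR5 was at 0.77 ± 0.37 (adjusted p = 0.0722).

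Whether the changes differed in size was tested as (SSTS/AAAA minus GFP-FIE) minus (amiR-fie-es minus Ctrl), which uses separate controls. PRR9 fell less in SSTS/AAAA, by a difference of 0.84 ± 0.09 (SE, adjusted p = 2.51e-10), and so did LHY, 0.22 ± 0.03 (2.92e-08). CCA1 differed by 0.08 ± 0.03 (adjusted p = 0.0162) and TOC1 by −0.24 ± 0.10 (0.0460). That is 3 differences above 0 and 1 below among the 8 tested, beside 23.5% and 22% of all genes tested. The counts dropped to 2 and 0 without Ctrl replicate 3, GFP-FIE replicate 2 or GFP-FIE replicate 3. CCA1 missed the threshold without any 1 of the Ctrl or GFP-FIE libraries (adjusted p from 0.0963 to 0.254), a call thus lost with each of 6 libraries. TOC1 missed the threshold without amiR-fie-es replicate 1 or 3, Ctrl replicate 3, GFP-FIE replicate 2 or 3, or SSTS/AAAA replicate 1 or 2 (adjusted p from 0.0590 to 0.138), and also under DESeq2 (0.0760) and total counts (0.0746). PRR7 (0.04 ± 0.04), GI (0.03 ± 0.08), ELF3 (0.08 ± 0.11) and PRR5 (−0.55 ± 0.57) did not pass.

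Scaling affects small changes here. Total-count scaling, which the authors' FPKM use, moved the fold changes of all genes by 0.19 (amiR-fie-es against Ctrl) and 0.21 (SSTS/AAAA against GFP-FIE) on the log2 scale relative to TMM. It shifted the calls over all genes from 5868 up and 6005 down to 10673 and 3674 in the first comparison, and from 6666 and 6471 to 11214 and 3846 in the second. The ratio of raw counts of a pair of genes within a library is free of any scaling, and was added after the values had been seen. The ratio of CCA1 to PRR7 was 4.22 ± 0.0634 (SD, n = 3) in Ctrl, 2.54 ± 0.0560 in amiR-fie-es, 3.00 ± 0.0415 in GFP-FIE and 1.86 ± 0.0507 in SSTS/AAAA. No 2 genotypes overlapped in that ratio, and each of 3 pairs tested (amiR-fie-es and GFP-FIE against Ctrl, SSTS/AAAA against GFP-FIE) gave an exact permutation p of 0.1, two-sided, the smallest that 3 against 3 allow. LHY to PRR7 went from 3.39 to 1.93 with FIE silenced and from 2.46 to 1.59 in the phosphosite mutant, and PRR9 to PRR7 from 0.276 to 0.103 and from 0.137 to 0.0885. TOC1 to CCA1 went from 0.0348 ± 0.00232 to 0.0624 ± 0.00444 with FIE silenced and from 0.0438 ± 0.00455 to 0.0630 ± 0.00369 in the mutant, each with an exact permutation p of 0.1. By contrast, TOC1, GI and ELF3 relative to PRR7 were 1.08, 1.06 and 1.05 times the Ctrl ratio in amiR-fie-es (exact permutation p = 0.2, 0.6 and 0.3), within the spread of the libraries. In GFP-FIE against Ctrl, GI and ELF3 relative to PRR7 were lower, 0.83 and 0.84 times the Ctrl ratio without overlap (exact permutation p = 0.1 each).

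The genes whose profile over the 12 libraries was most like a member were found by the root mean square difference of centred log2 CPM among 17859 genes. For LHY the closest was AT5G64170, known as LNK1, a co-activator that works with RVE factors, at 0.0275. LNK1 averaged 191 CPM in Ctrl, 127 in amiR-fie-es, 162 in GFP-FIE and 126 in SSTS/AAAA. AT2G35840 (0.0291) and AT5G08430 (0.0345) followed. For TOC1 the closest were AT5G52180 (0.0605), AT4G08960 (0.0762) and EMB140 (AT4G24270, 0.0782). ELF4 was too low to be matched.

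A wider list of 47 clock-associated genes (the evening complex, the RVE and LNK activators, the ZTL family, CDF, PIF and BBX factors and photoreceptors) fell more often than it rose in amiR-fie-es: 26 fell and 7 rose of 44 tested, beside 30% and 29.3% of all genes, with a median log2 change of −0.24 beside 0.01 over all genes. Under total counts the split was 21 and 14. The 6 largest changes were falls of ASG4 (a member of the RVE family, −2.14 ± 0.09), RVE1 (−1.78 ± 0.04), CDF1 (a repressor of CO, −1.72 ± 0.05), BBX18 (−1.29 ± 0.06), PIF4 (a growth-promoting bHLH factor, −0.96 ± 0.03) and RVE8 (an activator of evening genes, −0.73 ± 0.03). ASG4 averaged 18.4 ± 0.576 CPM (SD, n = 3) in Ctrl and 4.16 ± 0.350 in amiR-fie-es, and RVE1 85.3 ± 5.31 and 24.8 ± 0.0520. RVE8 went from 76.7 ± 0.696 CPM to 46.1 ± 0.924. Each range was separate from the wild type's.

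In SSTS/AAAA against GFP-FIE, 19 of the 44 tested genes of the wider list fell and 10 rose, beside 32.3% and 33.3% of all genes. The median was −0.13, beside 0.02 over all genes. Under total counts this majority turned to 11 falls and 20 rises. COR27, a cold-regulated repressor of evening genes, had the largest change, 2.63 ± 0.42 (adjusted p = 4.92e-07), from 11 counts summed over the GFP-FIE libraries to 90 over SSTS/AAAA. It passed the filter on low counts only through SSTS/AAAA, the genotype where it was high, so its p and its rank are a description. CDF1 (−1.22 ± 0.05), ASG4 (−1.19 ± 0.10), TCP21 (also called CHE, a regulator of CCA1, −1.14 ± 0.03), PIF4 (−0.83 ± 0.03) and LNK4 (−0.59 ± 0.03) fell. TCP21 went from 106 ± 1.81 to 48.1 ± 0.915 CPM, and CDF1 from 42.3 ± 0.824 to 18.2 ± 0.380 CPM. In GFP-FIE against Ctrl, 15 of the 44 fell and 11 rose (17 and 8 under total counts), beside 15.3% and 14.4% of all genes. The largest changes were falls of RVE1 (−1.50 ± 0.04), ASG4 (−1.20 ± 0.08), BBX18 (−0.83 ± 0.06) and RVE2 (−0.74 ± 0.12), and rises of ELF4-L3 (0.62 ± 0.24) and PHYA (0.50 ± 0.03). RVE1 in GFP-FIE, 30.2 ± 0.912 CPM, was thus far nearer to amiR-fie-es than to Ctrl. The difference of effects passed for 23 of the 44 above 0 and 4 below, beside 23.5% and 22% of all genes. The largest were COR27 (2.09 ± 0.69), RVE1 (1.29 ± 0.07), CO (1.06 ± 0.41), ASG4 (0.96 ± 0.14), ELF4-L3 (−0.94 ± 0.31) and LUX (−0.77 ± 0.14). COR27 is one of these 23 and of the 10 rises above, and its place among them is likewise only a description.

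**Figure D3:**
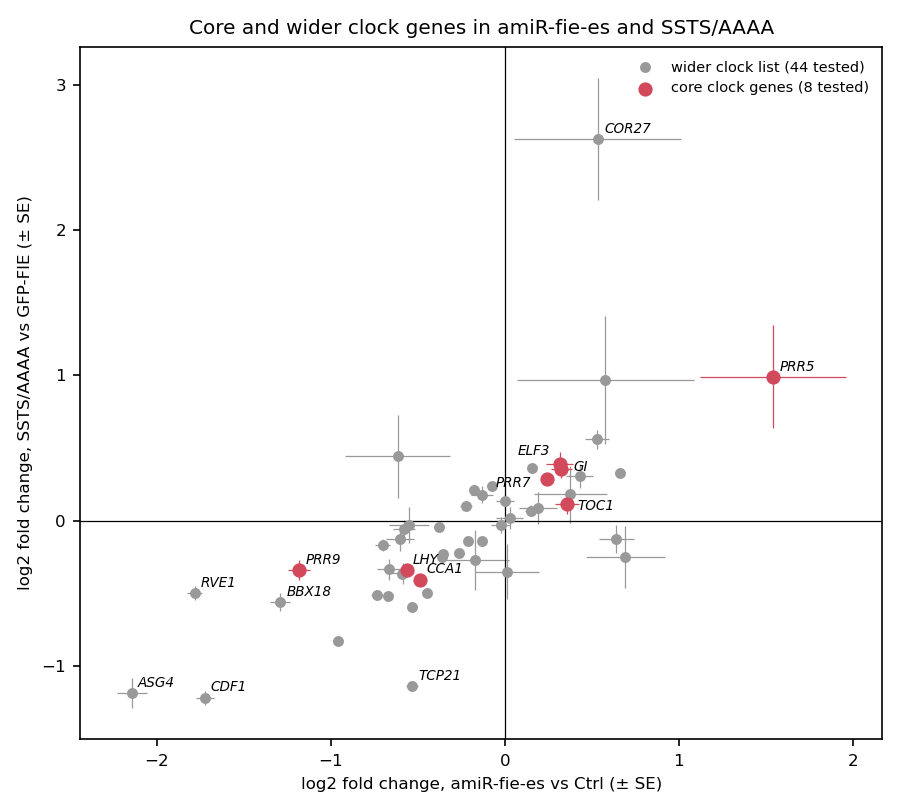
Log2 fold change in SSTS/AAAA against GFP-FIE (y axis) plotted against that in amiR-fie-es against Ctrl (x axis), edgeR, for the 8 tested core clock genes (red) and the 44 tested genes of the wider list (grey); error bars are SE of 3 libraries per group. ASG4, CDF1 and RVE1 lie lowest or farthest left, COR27 at 2.63 on the y axis is highest, and PRR9 is at −1.18 on the x axis and −0.34 on the y axis.

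None of the 10 clock genes carried H3K27me3 in the plants with altered FIE or in their controls. A gene was called marked in a library when the authors' peaks covered at least 200 bp of it, and marked in a group when this held in 3 of 3 libraries. The members marked were 0 of 10 in Ctrl, beside 18% of all genes placed, and 0 in GFP-FIE (16.1% of all genes), SSTS/AAAA (8.99%) and amiR-fie-es (3.55%). In 7-day-old seedlings they were 0 of 10 in Col-0 (14.7% of all genes) and 0 in tor-es (11%). The peaks covered 0 bp of every member in each of these 18 libraries, so no member could lose the mark. In the same lists 10.2% of all genes lost it between Ctrl and amiR-fie-es, 2.91% between GFP-FIE and SSTS/AAAA, 0.442% between Ctrl and GFP-FIE, and 1.03% between Col-0 and tor-es. No member gained it either, beside 0.0262%, 0.0112%, 0.0337% and 0.0337% of all genes in those 4 comparisons. None of the wider list of 47 was marked in those 6 groups. The RNA changes of CCA1, LHY, PRR9 and PRR7 were thus seen in genes without a called H3K27me3 peak in the same genotypes. Peak lists show only what passed the authors' caller, and signal under its threshold is not seen.

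The nearest peak to a member in these genotypes lay beside PRR3. It covered chr5:24201948-24202876 (TAIR10) in Ctrl replicate 1, on the neighbouring gene PUM18 (AT5G60110), with a fold enrichment of 7.09 as the authors' caller gave it. A peak reaching within 1000 bp of PRR3 was called in all 3 libraries of Ctrl, GFP-FIE, Col-0, DMSO and AZD8055, in 1 each of SSTS/AAAA, tor-es and Torin2, and in 0 of amiR-fie-es; PUM18 beyond that distance was not examined. The part of it within 1000 bp of PRR3 made that gene count as marked in Ctrl, GFP-FIE, Col-0 and DMSO when flanks were added, although no peak touched PRR3 itself.

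**Figure D4:**
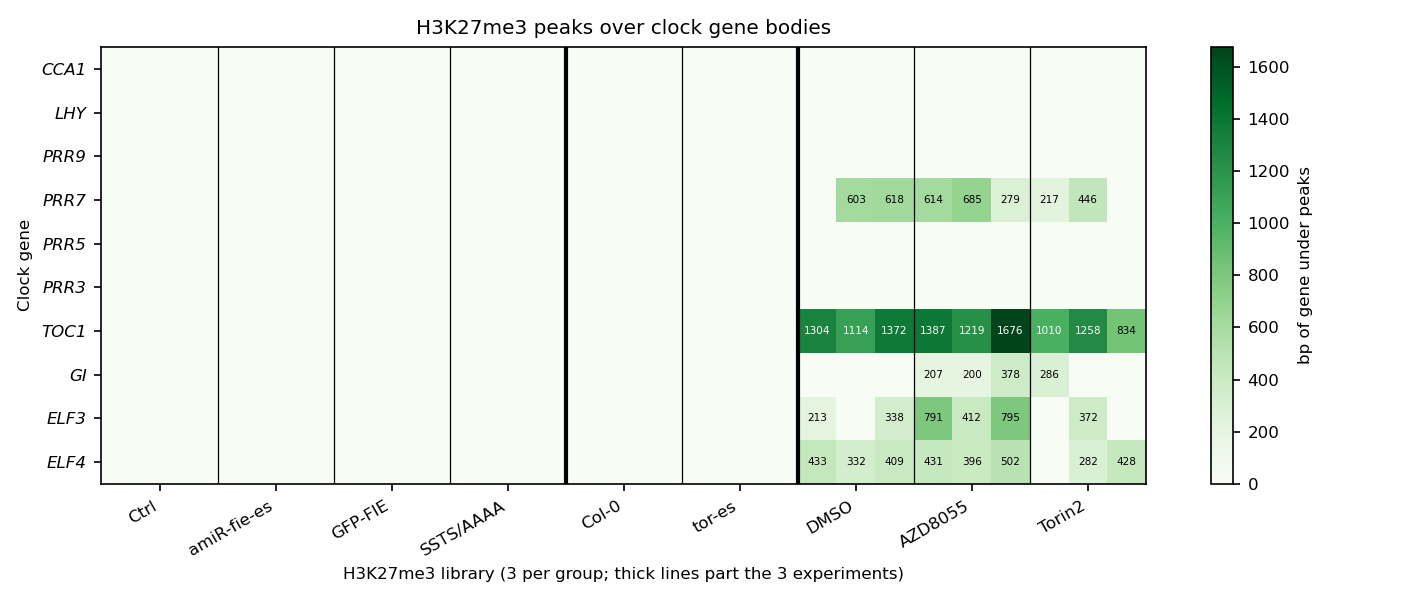
Base pairs of each clock gene body (rows) under H3K27me3 peaks in each of 27 libraries (columns, 3 per group; colour scale and printed values in bp, blank cells are 0). All cells are 0 in the 18 libraries of the first 6 groups, and TOC1 is covered over 834 to 1676 bp in every library given DMSO, AZD8055 or Torin2.

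The seedlings given DMSO or a TOR inhibitor were a different picture. In DMSO 2 of 10 members were marked (TOC1 and ELF4), beside 26.9% of all genes. In AZD8055 5 were marked (TOC1, PRR7, GI, ELF3 and ELF4), beside 26.5%, and in Torin2 1 was marked (TOC1), beside 22.7%. The 5 in AZD8055 became 1 when at least 500 bp had to be covered and 3 when only peaks with −log10 q of at least 5 were kept, and the 1 in Torin2 became 2 without its replicate 1 (ELF4 added) or replicate 3 (PRR7 added). In these libraries peaks also lay over genes highly expressed in the aerial parts of the 2-week-old Ctrl plants. The seedlings themselves have no RNA libraries in this series. Of the 2672 genes with the highest Ctrl FPKM, 59.4% were marked in DMSO, 69.3% in AZD8055 and 51.2% in Torin2, against 5.54% in Ctrl and 4.68% in Col-0, whereas the lower-expressed 13356 genes were marked at 32.9%, 26.5% and 28.4%, against 30.4% and 24.8%. The part of this pattern in the peaks over clock genes was not tested, and the difference between DMSO and untreated Col-0 cannot be told apart from a difference between experiments.

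TOC1 had the widest coverage in bp, 1304, 1114 and 1372 bp in DMSO, 1387, 1219 and 1676 bp in AZD8055, and 1010, 1258 and 834 bp in Torin2. The main peak covered chr5:24677222-24678335 (TAIR10) in DMSO replicate 2, with an authors' fold enrichment of 4.73. The groups overlapped for AZD8055 against DMSO (exact permutation p = 0.4, two-sided) and for Torin2 against DMSO (p = 0.2 by the same exact test). ELF4, whose RNA was at or near 0 in the older plants, was covered over 433, 332 and 409 bp in DMSO, 431, 396 and 502 bp in AZD8055, and 0, 282 and 428 bp in Torin2. As a share of gene length in DMSO, against 31.0% to 38.2% of TOC1, peaks covered 50.3% to 65.6% of the shorter ELF4. Its peak in DMSO replicate 2, chr2:16734523-16734854 (TAIR10), had a fold enrichment of 6.16 and a −log10 q of 25.1, the highest of any peak on a member. The exact permutation p was 0.5 for AZD8055 and 0.3 for Torin2.

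ELF3 was covered over 213, 0 and 338 bp in DMSO and 791, 412 and 795 bp in AZD8055, a mean difference of 482 bp without overlap of the groups (exact permutation p = 0.1, the smallest possible). In Torin2 it was covered over 0, 372 and 0 bp. Its peak in AZD8055 replicate 1 covered chr2:11062377-11063167 (TAIR10) with a fold enrichment of 4.81. GI had 0 bp in each DMSO library and 207, 200 and 378 bp in AZD8055 (exact permutation p = 0.1), with 286, 0 and 0 bp in Torin2. It was the 1 member that gained the mark in AZD8055 against DMSO by the rule of 3 of 3 against 0 of 3 libraries, beside 1.62% of all genes. That call sat at the 200 bp limit and was lost at 500 bp, and the GI peaks had fold enrichments of only 2.39, 2.38 and 2.23, one of them at a different place from the other 2. Just past the higher-coordinate end of GI, peaks on PFL (AT1G22780) were called in all 3 DMSO and all 3 AZD8055 libraries. In DMSO the one nearest GI had fold enrichments of 3.31, 3.16 and 3.44. PRR7 had 0, 603 and 618 bp in DMSO, 614, 685 and 279 bp in AZD8055 and 217, 446 and 0 bp in Torin2, with overlap throughout.

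No member lost the mark with either inhibitor, beside 1.26% of all genes for AZD8055 and 0.94% for Torin2, and with Torin2 no member gained it, beside 0.0262%. Both inhibitors were compared with the same DMSO libraries. CCA1, LHY, PRR9, PRR5 and PRR3 had 0 bp covered in all 27 libraries. A peak next to CCA1 lay on PSI-P (AT2G46820), a thylakoid membrane protein gene, in all 9 libraries of this experiment, for example at chr2:19244653-19245072 (TAIR10) in DMSO replicate 1. Of the wider list, 10 of 47 were marked in DMSO, 15 in AZD8055 and 9 in Torin2, beside 26.9%, 26.5% and 22.7% of all genes. LUX, TCP21, JMJ30, TIC, COR27, GRP7, GRP8, PHYA and CRY1 were marked in each of the 3 groups. ZTL and PHYB, 2 of the 47, gained the mark in AZD8055 against DMSO, beside 1.62% of all genes. The names from the wider list were picked after the peaks had been seen.

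H3K9me2 peaks covered none of the 10 clock genes and none of the wider list by at least 200 bp in any of the 6 libraries, beside 0.453% of all genes.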

How the data were processed

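The members and the gene lists were chosen with earlier results of these data known. Per the submitters' processing notes, reads were checked with FastQC 0.11.5 and trimmed with Trimmomatic 0.36, RNA reads were aligned with HISAT2 2.1.0 and counted with featureCounts of Subread 1.5.3, and ChIP reads were mapped with BWA 0.7.15-r1142, processed in SAMtools 1.6 and called with MACS2. The deposited counts are raw whole numbers per gene. The deposited FPKM equal those counts divided by gene length and total count. The deposited peak lists hold 1 library each and list, for every peak, a score, a fold enrichment ratio and −log10 p and q values, as the authors' caller wrote them. Builds TAIR10 and hg19 are named, and all peaks lie on Arabidopsis chromosomes. Input controls, the strand setting and ChIP read depth are not given in the sources used here.

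From the counts, edgeR 4.0.16 (R 4.3.3) was run with filterByExpr (20046 genes tested), TMM, 1 fit of the 12 RNA libraries by group and the two-sided quasi-likelihood test, Benjamini-Hochberg adjusted, threshold 0.05. The scripts were tested on simulated data. Group means are of CPM or, where stated, FPKM, and SE is the absolute log2 fold change divided by the square root of F. Nothing says that replicates were grown apart, so p-values measure the spread between libraries. That spread was small, with a common biological coefficient of variation of 0.0255 in edgeR. Same-numbered libraries did not deviate together (correlations from −0.043 to 0.045), so numbers were not taken as pairs. Gene positions and symbols came from RefSeq's TAIR10.1 table, whose positions lined up with the peaks: 4815 genes were marked in Ctrl with no shift, against 3388 to 4095 with shifts of 1000 to 20000 bp. Peak starts are 1-based. Covered bp was compared by exact permutation. The text names all members, FIE, up to 6 genes of the wider list with the largest change among those past the threshold, and 3 genes most like LHY and TOC1; the genes neighbouring a peak were named after their values were seen. DESeq2 1.42.0 and other settings were tried as alternatives.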

Additional observations from a re-analysis of the deposited data

Results flagged for a closer look

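Of the 8 clock genes tested, 4 changed by different amounts in SSTS/AAAA against GFP-FIE and in amiR-fie-es against Ctrl, by the edgeR test of the difference itself. Of these, 3 differences lay above 0 and 1 below, beside 23.5% and 22% of all genes tested. The count by itself thus does not set the clock genes apart. The difference was 0.84 on the log2 scale for PRR9 and 0.22 for LHY, whose falls were smaller in the phosphosite mutant than with FIE silenced. It was 0.0796 for CCA1 and −0.24 for TOC1, and these 2 missed the threshold when single libraries were left out. PRR9 already differed between the respective controls, at 14.6 to 15.7 CPM in GFP-FIE and 22.9 to 27.9 CPM in Ctrl. So did LHY, at 268 to 276 CPM in GFP-FIE and 312 to 316 CPM in Ctrl. In SSTS/AAAA against amiR-fie-es itself, neither gene passed by edgeR. The log2 changes there were 0.08 ± 0.07 for PRR9 (adjusted p = 0.352) and 0.01 ± 0.02 for LHY (adjusted p = 0.662).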

How the results depend on the processing

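Of 711 values of single clock genes under the alternatives, 681 kept their side of the threshold, 27 no longer passed, 2 came to pass and 1 reversed. A change of sign where neither value passed was counted among the 681. The reversal was PRR7 in amiR-fie-es against GFP-FIE, 0.21 under total counts (adjusted p = 1.59e-09) against −0.00 with TMM. The number of clock genes with a difference of effects, 4, ran from 2 to 4 when single libraries were left out. Members marked by H3K27me3 in AZD8055 fell from 5 to 1 at 500 bp and 3 at −log10 q of at least 5, and those in DMSO from 2 to 1 at 500 bp; DMSO ran from 2 to 3 (PRR7 added without replicate 1, ELF3 without replicate 2) and Torin2 from 1 to 2 when single libraries were left out. With 1000 bp added on both sides, an alternative chosen after seeing the data, DMSO had 5, Torin2 2, and Ctrl, GFP-FIE and Col-0 1 each; members that lost or gained the mark became 1 for amiR-fie-es against Ctrl and 1 for tor-es against Col-0, both PRR3 through the peak on PUM18, and 0 for AZD8055 against DMSO, which was also 0 at 500 bp. The planned region of 1000 bp before the start was not run, since the gene table gives no strand. Total-count scaling was likewise added after seeing the data. With the replicate block, the counts were 3 rises and 0 falls for the difference of effects (TOC1 adjusted p = 0.0519) and 1 rise and 1 fall for SSTS/AAAA against amiR-fie-es (TOC1 0.0539), and the other comparisons kept their counts, 5 and 3 in amiR-fie-es against Ctrl and 4 and 3 in SSTS/AAAA against GFP-FIE. For the difference of effects, fitting only the groups compared is the same fit. Depth limits PRR3, PRR5 and ELF4, which held at most 27 counts per library, and peak lists give no depth.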
